A study of Sus scrofa with 6 samples.

Results

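The account covers primary cells from the external ear (auricular) cartilage of a pig that were kept with DMSO, the solvent control of the study. These are 3 of the 6 libraries of the series, taken as the libraries whose labels name DMSO, and all 19670 gene models of the deposited table were read in them. The cells were freed by enzymes from the ear of 1 Duroc x (Landrace x Large White) pig of 4 months with wild-type PPARD, and stayed for 24 h in DMSO before RNA was taken. The other 3 libraries, treated with the PPARD agonist GW0742, are not analysed here. The labels do not say that the 3 libraries came from separate cultures, so an SD below is a spread between libraries that may be technical in origin, and says nothing of the spread between pigs. The number of passages is not given in the sources used here, nor is the purity of the cells.

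Elastic cartilage of the ear holds chondrocytes in a matrix of type II collagen and of aggrecan, a large proteoglycan that holds water, crossed by elastic fibres of elastin and fibrillin. The perichondrium around it is a layer of fibroblast-like cells that make type I collagen. Chondrocytes taken into culture are known to lower their cartilage collagen and aggrecan and to make type I collagen instead, which is called dedifferentiation. This is background and not a result of these data.

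Levels are in RPKM, read numbers scaled by model length and by library depth, as the authors deposited them, so that genes of different length can be set side by side. Values after a gene are for DMSO replicates 1, 2 and 3 in that order, and those after ± are the SD over n = 3. A model is called present at a mean of at least 1 RPKM with more than 3 estimated reads in each library, at the floor with 3 estimated reads or fewer in each of the 3, and low otherwise. The libraries held 16865093, 13637489 and 16913745 estimated reads, and 3 reads are worth between 0.177 and 0.220 CPM (reads scaled to library size), which covers counting error only. Of the 19670 models, 12545 were present (63.8%), 4258 were low (21.6%) and 2867 were at the floor (14.6%), 584 of them with no read at all. The median model stood at 3.39 RPKM.

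Type I collagen, mitochondrial genes, vimentin and genes of collagen folding and translation headed the levels in these cells. The 84 models at or above 1000 RPKM held 45.4% of the RPKM sum, and between 118 and 123 models held 50% of it in each library. The 10 most abundant models alone held 19.5%, 20.7% and 20.3% of the RPKM sum. Each piece of a split gene is a model in these shares, so COL1A1 (below) is counted more than once. Of the 25 most abundant models, 12 have no symbol, and they are named here by the protein that the deposited annotation gives.

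The highest model was a short piece of the alpha-1 chain of type I collagen (ENSSSCG00000021943) at 26760, 22612 and 24129 RPKM. The COL1A1 gene is split over 6 models with that protein name, with means from 839.8 to 24500 RPKM, and a further model named only as a hypothetical protein held rank 3 at 14550.4, 18222 and 16811 RPKM (16528 ± 1852). Weighted by model length, the 6 gave 12422, 12759.6 and 13428 RPKM (12869.9 ± 512) for COL1A1. Its partner chain COL1A2 (ENSSSCG00000015326) stood at 6894, 7447 and 6983 RPKM (7108 ± 297), and vimentin (VIM), the intermediate filament of mesenchymal cells, at 6883, 6705 and 6941 RPKM (6843 ± 123). The ranges of COL1A2 and VIM overlapped between libraries.

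Behind them came serpin H1, the collagen chaperone of the endoplasmic reticulum, at 5812, 5304 and 5303 RPKM (5473 ± 294), and biglycan (BGN), a small leucine-rich proteoglycan that binds collagen, at 4442, 5307 and 4667 RPKM (4805 ± 448). SPARC, a collagen-binding glycoprotein, has a pair of models at 4670 and 4105 RPKM, and thrombospondin 1 (THBS1), which activates latent TGF-beta, stood at 3754, 3922 and 3854 RPKM (3843 ± 84.5). The actin-binding peptide TMSB4X stood at 5005, 4444 and 4843 RPKM (4764 ± 289), and a cytoplasmic actin model that carries the symbol ACTG1 and the protein name beta-actin at 3454, 3374 and 3571 RPKM (3466 ± 98.7). The mitochondrial genes COX1, COX3, COX2 and ATP6 were at 9296, 6152, 3677 and 3329 RPKM. The remaining models among the 25 were elongation factor 1-alpha 1 (5217 RPKM), ribosomal proteins S20, RPLP1 and L8 (4736, 3591 and 3401 RPKM), ferritin heavy chain (3724 RPKM) and GAPDH (3315 RPKM). The 13 protein genes of the mitochondrial genome together held 5.32 ± 0.178% of the RPKM sum. Models of cytosolic ribosomal proteins held 11.6 ± 0.337% of it, with 113 of 197 present, against 63.8% present among all models.

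**Figure D1:**
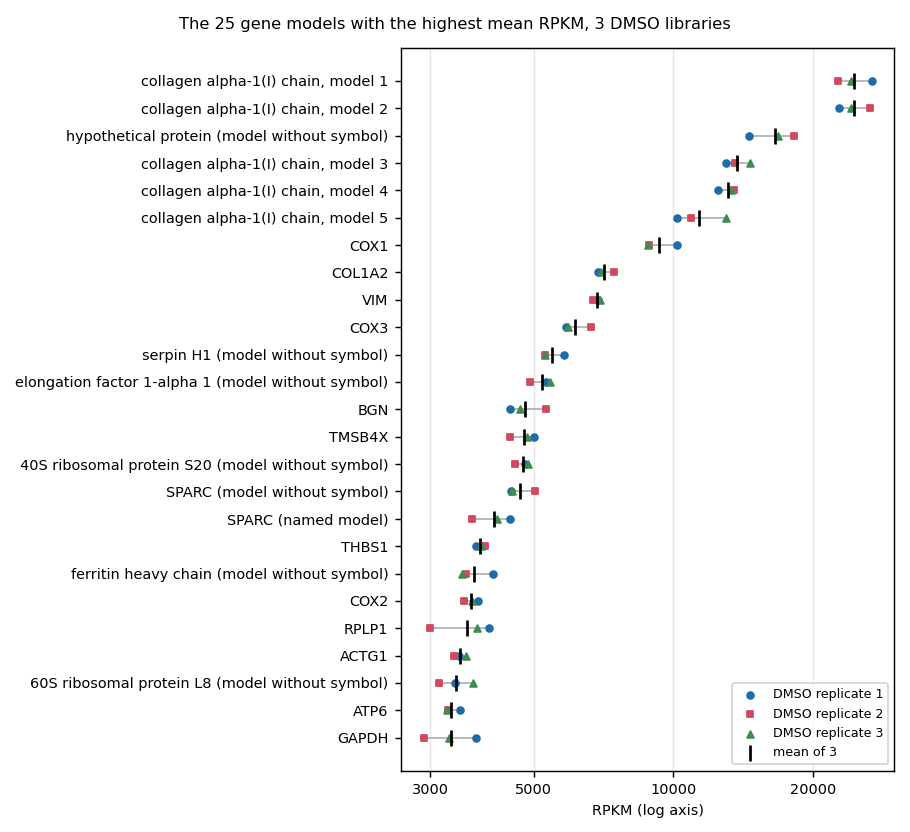
RPKM (log axis) of the 25 gene models with the highest mean over the DMSO libraries. Each symbol is 1 library, the grey line is their range and the black tick the mean. The first 6 models are 5 pieces of the collagen alpha-1(I) chain and a model of a hypothetical protein, between 10158 and 26760 RPKM.

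The 7 markers chosen to place these cells between chondrocyte and fibroblast spanned from 9.89 RPKM for SOX9 to 7108 RPKM for COL1A2. After COL1A2 and VIM came fibromodulin (FMOD, ENSSSCG00000015270), a collagen-binding proteoglycan of cartilage and tendon, at 1198, 1157 and 1189 RPKM (1181 ± 21.3). Elastin (ELN, ENSSSCG00000025858) stood at 111, 141 and 129 RPKM (127 ± 15.3), type II collagen (COL2A1, ENSSSCG00000025523), the main collagen of cartilage, at 109, 119 and 114 RPKM (114 ± 4.86), and aggrecan (ACAN, ENSSSCG00000001832) at 112, 103 and 101 RPKM (105 ± 5.56). ELN overlapped with COL2A1 and COL2A1 with ACAN, so the order of these 3 is not settled by the 3 libraries. SOX9 (ENSSSCG00000017251), the transcription factor that drives COL2A1 and ACAN, stood at 10.16, 10.1 and 9.40 RPKM (9.89 ± 0.422) and overlapped with none of the other 6.

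COL1A2 was 63.0, 62.5 and 61.2 times COL2A1 on the RPKM scale. A second model bears the protein name of COL1A2 but stood at only 6.16, 6.08 and 6.09 RPKM (6.11 ± 0.0478). With both joined, weighted by length, the ratio was 36.9 ± 0.557, a fall that comes mainly from the length this low model adds. FMOD was 11.2 ± 0.505 times ACAN and BGN 45.8 ± 5.87 times ACAN. Cartilage markers were present together with type I collagen and vimentin at far higher levels, and all 7 markers were present. In bulk RNA, fewer cells of a type and less RNA per cell cannot be told apart, so these ratios do not give the share of chondrocytes. That share was not measured.

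The share of the RPKM sum held by collagen chains depended on how split genes were counted. Of 39 matched chains 31 were present and 8 low, or 79.5% against 63.8% of all models, and the chains had a median of 31.1 RPKM. All 62 collagen models, the one named as a hypothetical protein included, held 18.8 ± 0.811% of the RPKM sum, with 17.9%, 19.5% and 19.0% in the libraries. RPKM is per length, so this sum counts the COL1A1 gene once for each of its pieces. With COL1A1 as 1 length-weighted level, the 39 matched chains summed to 4.63 ± 0.251% of the RPKM sum. COL1A1 to COL1A2 was 1.80, 1.71 and 1.92 on the RPKM scale. The ratio moved to 2.22 ± 0.129 without the COL1A1 model under 1000 RPKM. It moved to 3.05 ± 0.177 with the second COL1A2 model, at 6.11 RPKM, joined by length. Its value thus depends on which pieces are counted.

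Type VI collagen, which forms beaded filaments around cells, came next. COL6A1 stood at 2867, 3605 and 3237 RPKM (3236 ± 369) and COL6A2 at 2253, 2733 and 2612 RPKM (2533 ± 249.7), a ratio of 1.28 ± 0.0403. COL6A3, the remaining chain, stood at 372, 468 and 404 RPKM (415 ± 48.8), or 0.164 ± 0.00831 times COL6A2, with no overlap between the libraries of the 3 chains. Type V collagen, which starts type I fibrils, was at 875, 1057 and 1002 RPKM (978 ± 93.4) for COL5A1 and 736, 831 and 741 RPKM (769 ± 53.5) for COL5A2. Type III collagen (COL3A1), a fibril collagen of soft connective tissue, was at 917, 1018 and 923 RPKM (953 ± 56.2) and 8.34 ± 0.228 times COL2A1.

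Among cartilage collagens COL11A1, the minor fibrillar chain that joins type II fibrils, stood at 152, 155 and 143 RPKM (150.2 ± 6.37), above COL2A1 in each library with a ratio of 1.32 ± 0.0697. Its partner COL11A2 was at 6.88 ± 0.554 RPKM, COL9A2 of the fibril-bound type IX collagen at 5.93 ± 0.255 RPKM, and COL9A1 was low at 0.576 ± 0.0347 RPKM. COL10A1, the collagen of hypertrophic cartilage, stood at 1.17 ± 0.0999 RPKM. Basement membrane chains COL4A1 and COL4A2 were at 248 and 132 RPKM in the mean, a ratio of 1.88 ± 0.0351. The network collagen COL8A1 (275 RPKM), COL15A1 (183 RPKM) and COL12A1 (159 RPKM), which lies along type I fibrils, also stood above COL2A1. The lowest chains were COL6A5 at 0.0184 and COL21A1 at 0.0758 RPKM. COL17A1, a hemidesmosome collagen, was low in its named model, but another model with its protein name was present at 2.54 RPKM.

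**Figure D2:**
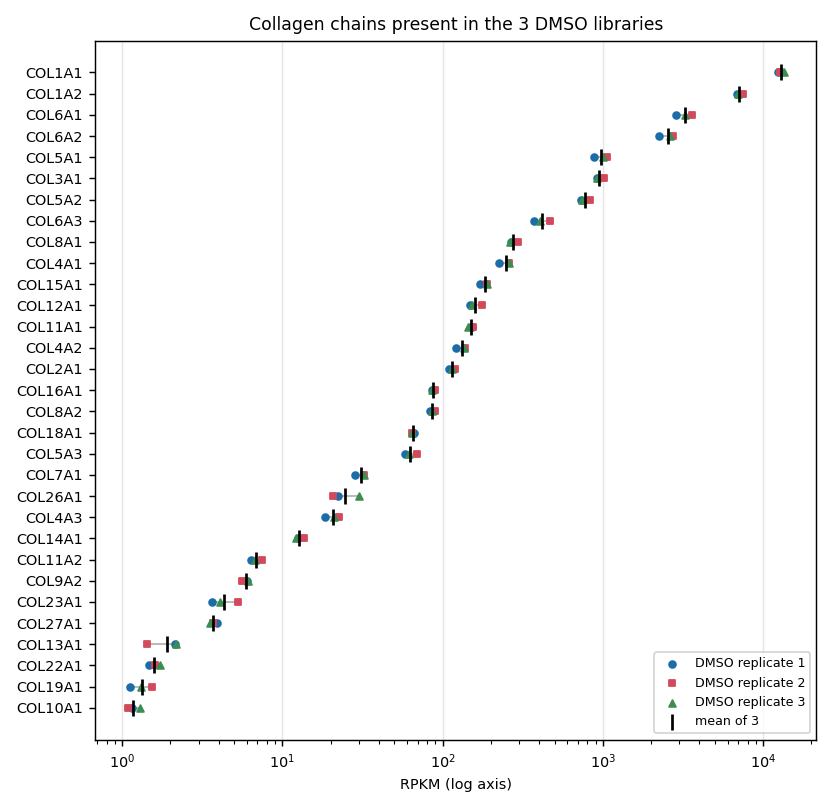
RPKM (log axis) of the 31 collagen chains that were present, by DMSO library, with the range as a grey line and the mean as a black tick. COL1A1, weighted over 6 models, and COL1A2 lead, COL2A1 stands at 114 RPKM and COL10A1 at 1.17 RPKM.

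Genes that fold, modify and cut collagen were present almost as a whole: 23 of 25 matched members (92% against 63.8% of all models), with a median of 66.9 RPKM. Behind serpin H1 came the peptidyl-prolyl isomerase FKBP10 at 655, 674 and 649 RPKM (659 ± 12.995) and the prolyl 4-hydroxylase subunits P4HA2 at 344, 361 and 359 RPKM (355 ± 9.04) and P4HA1 at 186, 197 and 184 RPKM (189 ± 6.73). The lysyl hydroxylases PLOD3, PLOD1 and PLOD2 stood at 151, 147 and 66.9 RPKM. The C-propeptide protease BMP1 was at 134 RPKM and its enhancer PCOLCE at 229 RPKM. The BMP1 relatives TLL1 and TLL2 were the low members, at 0.284 and 0.516 RPKM.

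Of the 25 matched cartilage matrix genes, 16 were present (64% against 63.8% of all models), 7 low and 2 at the floor, and the list's median of 2.09 RPKM lay under the 3.39 RPKM of all models. Besides COL11A1, COL2A1 and ACAN, the members above 10 RPKM were cartilage oligomeric matrix protein (COMP) at 31.5, 33.3 and 35.9 RPKM (33.6 ± 2.21) and chondroadherin (CHAD) at 34.8, 30.5 and 29.2 RPKM (31.5 ± 2.92). The other members above 5 RPKM were HAPLN3, the transmembrane proteoglycan SNORC, COL11A2 and COL9A2. The link protein HAPLN1, which ties aggrecan to hyaluronan, stood at 2.29, 1.61 and 2.37 RPKM (2.09 ± 0.416). Matrilin 4 (MATN4) was at 4.56 RPKM and MATN3 at 1.29 RPKM, while matrilin 1 (MATN1) and chondromodulin (CNMD), an inhibitor of vessel growth in cartilage, were at the floor, CNMD with no read. Lubricin (PRG4) and CILP, proteins of joint cartilage, were low at 0.0756 and 0.135 RPKM. Versican (VCAN), a large proteoglycan of mesenchyme, stood at 19.4 ± 0.79 RPKM, or 0.184 ± 0.00596 times ACAN, and the hyaluronan synthase HAS2 at 5.38 ± 0.54 RPKM.

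The small leucine-rich proteoglycans, which bind collagen fibrils and growth factors, were present in 14 of 16 members (87.5% against 63.8% of all models). They ranged from BGN and FMOD down to PRELP at 419, 355 and 349 RPKM (374 ± 38.7), asporin (ASPN) at 121, 126 and 116 RPKM (121 ± 5.11) and decorin (DCN) at 36.5, 53.4 and 44.5 RPKM (44.8 ± 8.46). Lumican (LUM) and osteoglycin (OGN) stood at 9.91 and 5.13 RPKM. BGN and DCN, which are close in structure, thus differed in level in each library without overlap. DCN was highest in replicate 2 and lowest in replicate 1, and stood at 0.428 ± 0.0963 times ACAN, or 0.529 ± 0.107 times with its second model joined.

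The elastic fibre list had 21 of 25 members present (84% against 63.8% of all models), with a median of 22.8 RPKM. Fibrillin 1 (FBN1), the microfibril backbone, stood at 345, 383 and 365 RPKM (364 ± 19.4), or 2.89 ± 0.204 times ELN. Enzymes that cross-link elastin and collagen were high, with LOXL2 at 700.0, 899 and 774 RPKM (791 ± 101) and LOX at 278, 319.9 and 309.7 RPKM (303 ± 21.7), and LOXL1 and LOXL4 at 60.9 and 47.1 RPKM. With a second model of its protein name joined LOXL1 was at 36.3 RPKM, below LOXL4. Fibulin genes that help elastin assemble included FBLN2 at 265, EFEMP2 (fibulin 4) at 85.1 and FBLN5 at 18.6 RPKM. Fibrillin 2 (FBN2), a fetal fibrillin, was at 4.36 RPKM, and FBLN1 and FBN3 were low. MMRN2 was at the floor.

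Fibroblast and mesenchyme genes were present in 22 of 23 members (95.7% against 63.8% of all models) with a median of 558 RPKM. Together they held 6.62 ± 0.169% of the RPKM sum, against 0.0736 ± 0.00232% for the cartilage matrix list. Both lists hold collagens, so these shares rest largely on the chains above. Apart from them, the lectin LGALS1 stood at 2098, 1758 and 1971 RPKM (1942 ± 172), fibronectin (FN1) at 673, 815 and 725 RPKM (738 ± 71.7) and tenascin C (TNC) at 567, 551 and 555 RPKM (558 ± 8.28). Surface markers of mesenchymal stromal cells were present, with THY1 at 299, CD44 at 102, ENG at 33.0 and NT5E at 20.1 RPKM. FAP, a protease of activated fibroblasts, was at 7.19 RPKM. Periostin (POSTN), a matrix protein of periosteum and ligament, was the low member at 0.356, 0.432 and 0.384 RPKM (0.391 ± 0.0384).

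Contractile genes were high as a group, with 18 of 18 matched members present (100% against 63.8% of all models) and a median of 583 RPKM. Transgelin (TAGLN) stood at 2940.5, 2802 and 2705 RPKM (2816 ± 119), smooth muscle alpha-actin (ACTA2) at 2136, 2064 and 2016 RPKM (2072 ± 60.5) and ACTB at 2127, 2283 and 2395 RPKM (2268 ± 135). ACTA2 to ACTB was 0.917 ± 0.082. Calponin (CNN1) was at 319 RPKM and desmin (DES), the intermediate filament of muscle cells, at 171 RPKM. Smooth muscle myosin (MYH11), a marker of mature smooth muscle, was at 1.47, 1.53 and 1.74 RPKM (1.58 ± 0.140), while the non-muscle heavy chain MYH9 was at 860.4, 807 and 859 RPKM (842 ± 30.3).

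**Figure D3:**
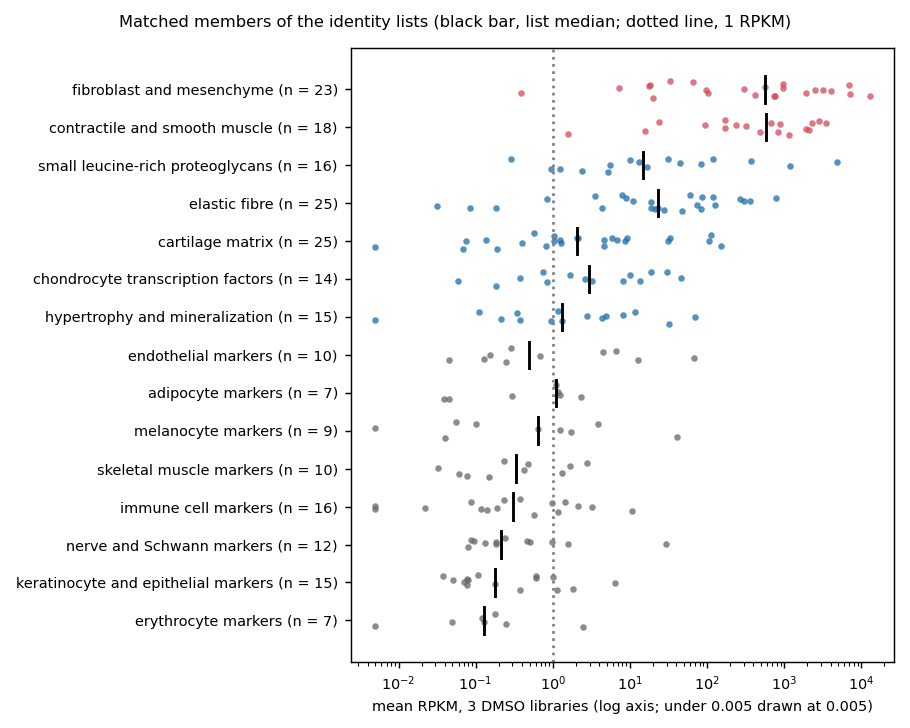
Mean RPKM over the DMSO libraries (log axis) of the matched members of 15 gene lists, 1 dot per gene, with n the number of matched members. Fibroblast and contractile lists (red) have medians of 558 and 583 RPKM, matrix and chondrocyte lists (blue) of 1.32 to 22.8 RPKM, and markers of other cell types (grey) of 0.13 to 1.101 RPKM.

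Among 14 chondrocyte transcription factors 9 were present (64.3% against 63.8% of all models) and 5 low. BARX1, a homeobox factor of facial mesenchyme, was highest at 44.9, 49.6 and 42.4 RPKM (45.6 ± 3.63), then ARID5B at 30.1 and RUNX1 at 18.8 RPKM. SOX6 and SOX5, the partners of SOX9 in cartilage, stood at 12.9, 16.3 and 11.5 RPKM (13.5 ± 2.49) and 3.57, 2.90 and 3.26 RPKM (3.24 ± 0.333). RUNX2, which drives hypertrophy and bone formation, was at 7.31, 8.25 and 8.96 RPKM (8.17 ± 0.831), within 2 RPKM of SOX9 in the mean and without overlap of their libraries. NKX3-2 and PAX9, early factors of cartilage precursors, were low at 0.848 and 0.743 RPKM.

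Of 15 hypertrophy and mineralization genes 9 were present (60% against 63.8% of all models), 5 low and 1 at the floor, with a median of 1.32 RPKM. Osteopontin (SPP1), a matrix phosphoprotein, stood at 54.6, 87.3 and 68.7 RPKM (70.2 ± 16.4), and was highest in replicate 2. Matrix Gla protein (MGP), an inhibitor of mineralization, was at 28.5, 35.2 and 32.5 RPKM (32.1 ± 3.36), and PTH1R, the receptor that holds back hypertrophy, at 13.1, 9.74 and 12.0 RPKM (11.6 ± 1.73). The osteoblast factor SP7 was at 4.91 RPKM and alkaline phosphatase (ALPL) at 1.32 RPKM. MMP13 and IHH, genes of hypertrophic and prehypertrophic chondrocytes, were low at 0.341 and 0.109 RPKM, and bone sialoprotein (IBSP) had no read.

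Matrix proteases and their inhibitors were present in 22 of 32 members (68.75% against 63.8% of all models). The serine protease inhibitor SERPINE2 stood at 913, 1040.4 and 943 RPKM (965 ± 66.7). TIMP1 and TIMP2, which block metalloproteinases, were at 420.1, 516 and 492 RPKM (476 ± 49.8) and 487, 429 and 444 RPKM (453 ± 29.9). The serine protease HTRA1 stood between SERPINE2 and TIMP1 at 538, 556 and 519 RPKM (538 ± 18.3). The highest metalloproteinases were MMP2 at 217, 244 and 221 RPKM (227 ± 14.8) and its membrane activator MMP14 at 101, 96.7 and 104 RPKM (101 ± 3.65). The collagenase MMP1 was at 1.24 RPKM, and the aggrecan-cutting ADAMTS4 and ADAMTS5 were at 5.10 and 0.240 RPKM. MMP3, MMP7, MMP12 and MMP24 were at the floor.

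Markers of the other cell types that the digest could have held were mostly low. The share to set beside the counts below is the 63.8% present among all models. Endothelial markers were present in 4 of 10 members, and summed to between 77.3 and 110.1 RPKM, most of it from the tight junction gene CLDN5 at 52.0, 82.0 and 72.0 RPKM (68.7 ± 15.3). The endothelial factor ERG stood at 12.8, 13.2 and 11.7 RPKM (12.6 ± 0.777) and PECAM1 at 6.55 RPKM, while the receptors KDR and TEK were low at 0.246 and 0.0450 RPKM. CDH5 and VWF were not matched to a model. Melanocyte markers were present in 4 of 9, and MLANA at 47.0, 37.8 and 38.7 RPKM (41.1 ± 5.05) made most of their sum of 44.0 to 55.5 RPKM. PMEL and OCA2 were at the floor, and tyrosinase (TYR) had no read. The other present members of these lists were EGFL7 at 4.43 RPKM among endothelial genes, and KIT, MITF and SOX10 at 3.81, 1.73 and 1.24 RPKM among melanocyte genes. No endothelial member was at the floor.

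Immune markers were present in 4 of 16 members, with sums of 20.2 to 22.7 RPKM. CD14 stood at 9.50, 11.3 and 11.2 RPKM (10.7 ± 1.01), the pan-leukocyte PTPRC at 0.188 RPKM, MS4A1 was at the floor, and LYZ and CD8A had no read. Nerve and Schwann cell markers were present in 2 of 12, with TUBB3 at 29.1 RPKM and sums of 31.1 to 35.7 RPKM. NGFR was 1.59 RPKM in its named model and 17.8 RPKM with a second model joined. Keratinocyte markers were present in 4 of 15 (sums of 11.2 to 13.8 RPKM), with KRT14 at 6.42 RPKM and IVL, KRT18 and DSG3 at the floor.

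Skeletal muscle markers were present in 3 of 10 (sums of 6.27 to 8.32 RPKM), and MYOD1 and PAX3 were at the floor. Adipocyte markers were present in 4 of 7 (57.1% against 63.8% of all models, sums of 4.999 to 7.07 RPKM), and LEP and CD36 were at the floor. ADIPOQ, FABP4, PLIN1 and LPL were not matched to a model. Of 7 erythrocyte markers HBA1 was present at 2.49 RPKM, with sums of 2.87 to 3.63 RPKM over the list. AHSP was at the floor, and KLF1 had no read. Summed levels of the matched members in all 8 lists stayed under the 114 RPKM mean of COL2A1, the endothelial sum reaching 110.1 RPKM in replicate 2. Members without a matched model are missing from these sums, so the sums do not limit the share of such cells. The part of such cells in any level above was not tested.

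Receptors were counted over 7 lists. Of 218 matched receptors 128 were present (58.7%), 76 low and 14 at the floor, against 63.8% present among all models. Transcription factors, over 6 lists, were present in 77 of 143 (53.8%), low in 51 and at the floor in 15. The medians were 1.504 and 1.401 RPKM, against 3.39 RPKM for all models.

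**Figure D4:**
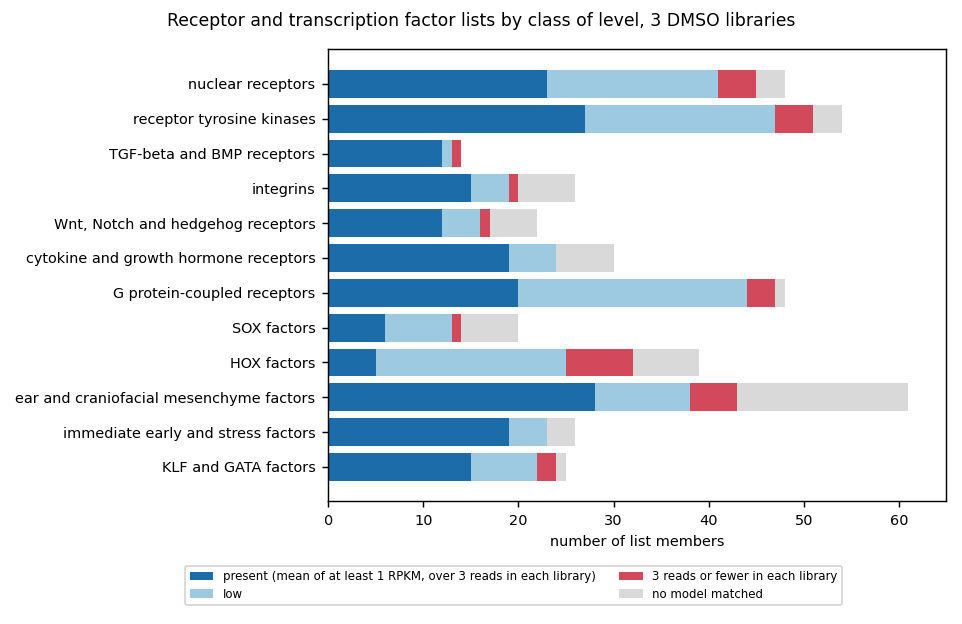
Number of members in each receptor and transcription factor list that were present, low, at 3 reads or fewer in each DMSO library, or without a matched gene model. Nuclear receptors were present in 23 of 45 matched members, G protein-coupled receptors in 20 of 47 and HOX factors in 5 of 32. Among all models 63.8% were present.

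Nuclear receptors bind lipids and hormones and act as transcription factors, many as partners of a retinoid X receptor (RXR). Of 45 matched, 23 were present (51.1% against 63.8% of all models), 18 low and 4 at the floor. The retinoic acid receptor RARG was highest at 89.5, 81.7 and 83.0 RPKM (84.7 ± 4.20), with RARA at 60.9, 54.1 and 62.6 RPKM (59.2 ± 4.51). The liver X receptors for oxysterols stood at 63.7, 63.8 and 66.8 RPKM (64.7 ± 1.76) for NR1H2 and 29.1, 24.2 and 27.5 RPKM (26.9 ± 2.50) for NR1H3. RXRB, the RXR with the highest level here, was at 32.2, 36.5 and 28.0 RPKM (32.2 ± 4.24). In the order RARG, NR1H2, RARA, RXRB no pair of neighbours overlapped between libraries. RXRA was not matched to a model.

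PPARD (ENSSSCG00000001539), the lipid-sensing receptor that the study activates, stood at 14.1, 12.5 and 14.8 RPKM (13.8 ± 1.13), rank 4873 among all models and seventh among the nuclear receptors. It was lowest in replicate 2. PPARG, the adipocyte member of the family, was at 2.95, 1.79 and 2.24 RPKM (2.33 ± 0.584), and PPARA, the liver and muscle member, at 0.848, 0.906 and 1.30 RPKM (1.02 ± 0.243). PPARD to PPARG was 4.78, 6.99 and 6.59, and PPARD to the named PPARA model was 16.6, 13.8 and 11.4. A further model with the protein name PPAR alpha-like stood higher than the named one, at 1.54, 2.69 and 1.17 RPKM (1.80 ± 0.790). It is not in this ratio. PPARD was the highest of the 3 in each library with either PPARA model. The thyroid hormone receptor THRA, just above PPARD in the order, stood at 15.1, 16.7 and 18.1 RPKM (16.6 ± 1.51), and NR1D2, just below, at 12.9, 13.3 and 12.9 RPKM (12.997 ± 0.240). The libraries of NR1D2 lay inside the range of PPARD, and those of THRA lay above it.

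The glucocorticoid receptor NR3C1 was at 11.6 RPKM and the vitamin D receptor VDR at 6.72 RPKM. The estrogen and progesterone receptors were low, with ESR1 at 0.285, ESR2 at 0.130 and PGR at 0.0230 RPKM. NR4A1, an immediate early receptor, was low at 0.203 RPKM. RORB, NR1H4, NR1I2 and ESRRB were at the floor.

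**Figure D5:**
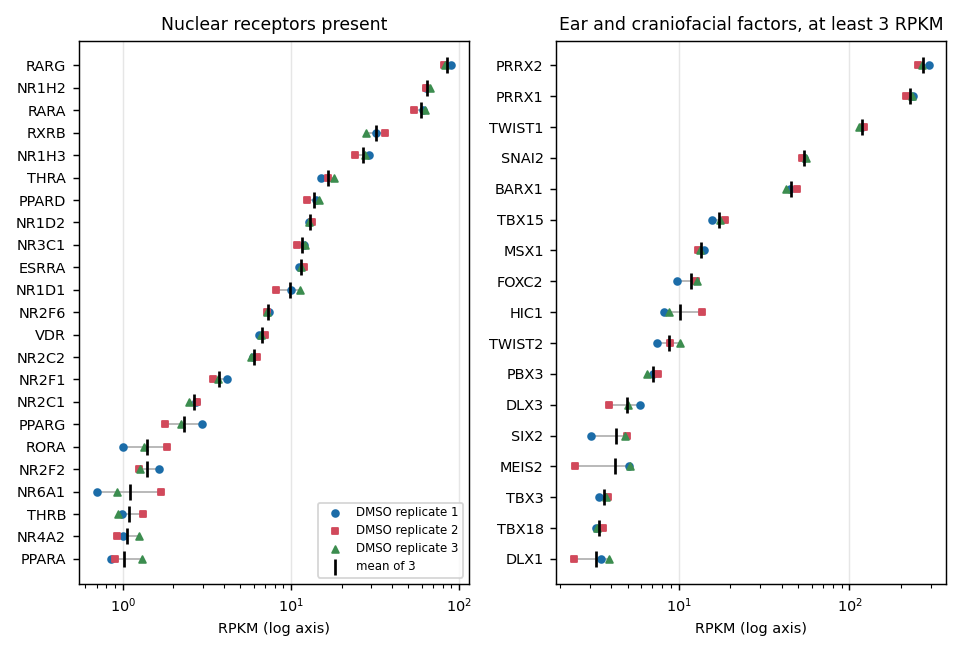
RPKM (log axes) of the 23 nuclear receptors that were present and the 17 ear and craniofacial mesenchyme factors that were present at a mean of at least 3 RPKM, by DMSO library, with the range as a grey line and the mean as a black tick. RARG leads the receptors at 84.7 RPKM with PPARD at 13.8 RPKM, and PRRX2 and PRRX1 lead the factors at 270.1 and 228 RPKM, the value of PRRX1 being a length-weighted mean of 2 models.

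Receptor tyrosine kinases were present in 27 of 51 members (52.9% against 63.8% of all models). PTK7, a co-receptor of planar polarity, stood at 219, 239 and 226 RPKM (228 ± 10.4) and AXL, a receptor of the Gas6 ligand, at 152, 143 and 158 RPKM (151 ± 7.23). The platelet-derived growth factor receptor PDGFRB of mesenchymal cells was at 64.7, 67.5 and 65.6 RPKM (66.0 ± 1.41), above PDGFRA at 18.2 RPKM, and the collagen receptor DDR2 at 59.6, 60.7 and 57.9 RPKM (59.4 ± 1.45). All 4 FGF receptors were present, FGFR1 at 55.8, FGFR3 at 40.6, FGFR2 at 28.0 and FGFR4 at 3.59 RPKM. FGFR3, which restrains the growth of cartilage, was at 44.5, 33.8 and 43.3 RPKM (40.6 ± 5.84) and lowest in replicate 2. EGFR was at 9.51 and IGF1R at 8.69 RPKM, or 12.0 and 33.8 RPKM with all models of the protein joined. MERTK, MUSK, EPHA7 and FLT3 were at the floor.

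TGF-beta and BMP receptors were present in 12 of 14 members (85.7% against 63.8% of all models). The highest included TGFBR2 at 71.6, 68.5 and 79.1 RPKM (73.1 ± 5.44), BMPR2 at 45.9, 53.9 and 49.9 RPKM (49.9 ± 4.02) and ACVR1 at 35.7, 31.6 and 34.97 RPKM (34.1 ± 2.18). TGFBR1 stood at 18.5 RPKM and the BMP receptors BMPR1A and BMPR1B at 8.45 and 4.12 RPKM. ACVR1C was at the floor. Integrins, the receptors that hold cells to matrix, were present in 15 of 20 (75% against 63.8% of all models). ITGB1 stood at 396, 391 and 386 RPKM (391 ± 5.18) and its fibronectin-binding partner ITGA5 at 261, 269.6 and 269 RPKM (266 ± 4.75). ITGA11, a collagen receptor, was at 48.1, ITGA1 at 12.7 and ITGA2 at 1.21 RPKM, and ITGB6 was at the floor.

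Wnt, Notch and hedgehog receptors were present in 12 of 17 (70.6% against 63.8% of all models). Frizzled FZD2 stood at 67.0, 63.2 and 73.7 RPKM (68.0 ± 5.33), NOTCH2 at 36.8, 36.3 and 36.1 RPKM (36.4 ± 0.323) and NOTCH3 at 27.6 RPKM. The hedgehog transducer SMO was at 10.3 RPKM and PTCH1, which is both receptor and target of hedgehog, at 1.03 RPKM. The adult stem cell receptor LGR5 was at the floor. Cytokine receptors were present in 19 of 24 (79.2% against the same 63.8%), led by TNFRSF12A, the receptor of TWEAK, at 272, 281 and 303 RPKM (285 ± 16.3). IL17RA was at 75.5, TNFRSF1A at 49.6, the shared IL-6 family chain IL6ST at 29.6 and IL1R1 at 11.7 RPKM. IL6R, LEPR and PRLR were low at 0.172, 0.0659 and 0.0670 RPKM.

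G protein-coupled receptors were the receptor list with the smallest share present, 20 of 47 (42.6% against 63.8% of all models). The chemokine scavenger ACKR3 stood at 134, 158 and 148 RPKM (147 ± 12.0). The bradykinin receptor BDKRB1 was at 28.2, 32.1 and 32.2 RPKM (30.8 ± 2.27), and the lysophospholipid receptors S1PR2 and LPAR1 at 21.6 and 15.6 RPKM. PTH2R, CALCRL and EDNRB were at the floor. Over all 265 models that the deposited annotation gives G protein-coupled receptor activity, 32 were present (12.1%) and 157 at the floor.

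Ear and craniofacial mesenchyme factors were present in 28 of 43 matched members (65.1% against 63.8% of all models). The paired homeobox factors of limb and facial mesenchyme led, with PRRX2 at 291, 254 and 265 RPKM (270.1 ± 19.3) and PRRX1 at 235, 216 and 232 RPKM (228 ± 10.5). The PRRX1 value is the length-weighted mean of 2 models with its protein name, at means of 462 and 0.254 RPKM. The higher of them alone, at 477, 437 and 471 RPKM, exceeded PRRX2 in each library, so the order of PRRX1 and PRRX2 depends on the averaging. TWIST1, a factor of cranial mesenchyme, was at 118, 121 and 114 RPKM (118 ± 3.87) and SNAI2 at 53.9, 53.0 and 55.4 RPKM (54.1 ± 1.20). TBX15, needed for the shape of the ear in mice, was at 15.5, 18.7 and 17.4 RPKM (17.2 ± 1.61), and MSX1 at 14.04, 12.9 and 13.4 RPKM (13.4 ± 0.576). The ear homeobox factor HMX1 stood at 1.85 RPKM. PAX3, LHX6, LHX8 and TFAP2B were at the floor. MEIS1 was uneven, with 0.179, 22.4 and 8.46 RPKM (10.3 ± 11.2), and counts as low because replicate 1 held 3 reads or fewer.

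HOX genes, which pattern the trunk and limbs, were mostly low. Of 32 matched members 5 were present (15.6% against 63.8% of all models), 20 low and 7 at the floor, with a median of 0.215 RPKM. The highest were HOXB9 at 3.37, 2.98 and 3.34 RPKM (3.23 ± 0.220) and HOXB2 at 3.39, 2.53 and 3.56 RPKM (3.16 ± 0.554). HOXA2, the factor of the second pharyngeal arch that is needed for the external ear, was low at 0.611, 0.408 and 0.644 RPKM (0.554 ± 0.127). HOXB13, HOXC12, HOXD3, HOXC10, HOXD10, HOXA11 and HOXB1 were at the floor, HOXB1 with no read. SOX factors were present in 6 of 14 (42.9% against the same 63.8%), with SOX12 and SOX4 at 26.6 and 25.9 RPKM above SOX6 and SOX9. SOX10, a neural crest and glial factor, stood at 1.17, 1.16 and 1.37 RPKM (1.24 ± 0.120), and SOX21 was at the floor.

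Immediate early and stress factors were present in 19 of 23 (82.6% against 63.8% of all models), with a median of 47.2 RPKM. XBP1, a factor of the unfolded protein response, stood at 199, 227 and 201 RPKM (209 ± 15.8) and the hypoxia factor HIF1A at 162, 165 and 165 RPKM (164 ± 1.56). ATF4, of the amino acid response, was low in its named model at 0.184 RPKM, but another model with its protein name was at 642, 601 and 641 RPKM. Among AP-1 genes FOSL2 was at 116, JUNB at 73.8 and JUN at 45.5 RPKM, while FOS was low at 0.464 RPKM, as was the zinc finger gene EGR2 at 0.187 RPKM. KLF and GATA factors were present in 15 of 24 (62.5% against 63.8% of all models), led by KLF10 at 75.3 and KLF6 at 43.2 RPKM. KLF17 and KLF1 were at the floor, and SP3 was low in its named model but present at 17.1 RPKM in another.

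Secreted ligands and their binding proteins were present in 41 of 58 members (70.7% against 63.8% of all models). SFRP2, an antagonist of Wnt, stood at 563, 604 and 594 RPKM (587 ± 21.3). The matricellular genes CCN1 and CCN2 were at 404, 455 and 412 RPKM (424 ± 27.6) and 212, 233 and 212 RPKM (219 ± 12.0). IGFBP5, a binding protein of insulin-like growth factors, was at 365, 468 and 420.0 RPKM (418 ± 51.1), while IGF1 and IGF2 themselves stood at 3.16 and 17.3 RPKM. TGFB3 at 243, 226 and 230.3 RPKM (233 ± 8.91) was the highest TGF-beta, above TGFB2 and TGFB1 at 32.2 and 29.0 RPKM, without overlap. Another model with the protein name of TGFB1 stood at 34.9, 55.3 and 45.6 RPKM, also below TGFB3. With both models joined TGFB1 was at 28.5, 34.2 and 32.1 RPKM and overlapped with TGFB2, so the order of TGFB2 and TGFB1 depends on the model. The BMP antagonist GREM1 was at 149.8, 107 and 144 RPKM (134 ± 23.5) and VEGFA, the vessel growth factor, at 90.8 RPKM. GDF5 and FGF18, growth factors of joints and cartilage, were low at 0.136 and 0.645 RPKM, and HGF, IGFBP1 and CHRDL2 were at the floor.

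Cell cycle genes were present in 19 of 20 members (95% against 63.8% of all models). They ran from thymidylate synthase (TYMS) at 158, 139 and 156 RPKM (151 ± 10.5) to CCNE1 at 3.31 RPKM. The proliferation marker MKI67 stood at 16.6, 13.4 and 14.7 RPKM (14.9 ± 1.61), and the mitotic kinase PLK1 at 26.4, 17.5 and 23.0 RPKM (22.3 ± 4.46). The inhibitor CDKN1B was at 20.5 RPKM. CDKN1A (p21) was at the floor in its named model, but another model with its protein name was at 221 RPKM. CDKN2A and CDKN2B were low at 0.976 and 0.891 RPKM. IL6, a cytokine of senescent cells, was low at 0.271 RPKM with another model at 1.96 RPKM.

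The 3 libraries resembled each other at these levels. Over 6019 models of at least 10 RPKM the ratio of the highest to the lowest library had a median of 1.13 and a 99th percentile of 1.96, and 55 models (0.914%) reached 2. Replicate 2 was the library apart in 48 of these 55. The 10 largest ratios, from 10.6 to 3.21, belonged to models of beta-nerve growth factor (8.06, 2.03 and 21.5 RPKM), a regulatory subunit of protein phosphatase 4, COQ4, YLP motif-containing protein 1, a KH domain RNA-binding protein, enhancer of yellow 2, C2orf47, RNA helicase A, CCNQ and 3-hydroxybutyrate dehydrogenase type 2. Of these 10, CCNQ alone has a symbol. Models that share a protein can also share reads in estimated counts, so the level of a single such model is uncertain.

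Replicate 2 was lowest for 14 of the 19 cell cycle genes present (73.7%) and highest for 23 of the 31 collagen chains (74.2%). Replicate 1 went the other way, highest for 16 of the 19 cell cycle genes (84.2%) and lowest for 22 of the 31 chains (71%). Over all 12545 present models replicate 2 was lowest for 46.5% and highest for 34.7%. In the same models replicate 1 was highest for 39.1% and lowest for 23.7%. The summed cell cycle list was 457, 378 and 420 RPKM in replicates 1, 2 and 3, and the summed collagen list was 28935, 31687 and 31012 RPKM. Replicate 2 also had the smallest number of reads, and the part of depth in these orders was not tested.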

How the data were processed

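Libraries were made from poly(A) RNA with random priming and sequenced by Ion Proton, per the labels' protocols. A strand-marking step is not named there, so overlapping genes on opposite strands were treated as not separable. Each gene model has an estimated count and an RPKM, both made by the authors (per the file headers), and 99.7% of the non-zero estimated counts are fractional. The RPKM values of the deposited series table and library tables differed in 0 models. The build was Sscrofa 10.2 per the submitters' processing notes, and no aligner, counter or annotation version is given in the sources used here.

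Of 19670 models 11714 received a symbol, 11147 from a gene name table and 567 through RefSeq (Sscrofa 11.1). Of 2451 models named by both routes 97.6% had the same symbol from both. The 33 lists hold 841 genes: 638 were matched by symbol, 82 by the deposited protein name (length-weighted where split over models), and 121 were not matched and are not analysed here. Members and lists were chosen with earlier results of these data known, and the protein-name matches, ratios, annotation terms and library orders after values were seen.

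Levels were given as mean and SD over 3 libraries, with no test, since there is 1 group (Python 3.11.15, pandas 2.3.3, numpy 2.4.6). The naming rule took the 7 markers, PPARD, the 25 highest models, up to 8 of the highest members and all members at the floor in each list, and the 10 models of at least 10 RPKM with the largest ratio between libraries. Some genes that the rule names are not reported here. Other named genes were chosen after their values were seen. As a check for a library deposited more than once, a chi-square of the counts of each pair of libraries gave 4.06 to 9.00 for each degree of freedom, and no pair agreed within sampling noise. Alternatives were minima of 0.5 and 2 RPKM, no read filter, each library left out, shares of estimated counts, scaling to an equal RPKM sum (as for TPM), joining models of 1 protein name, and geometric means with pseudocounts of 1 and 0.1 RPKM. The planned survey of promoter motifs and protein repeats was not run.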

Additional observations from a re-analysis of the deposited data

How the results depend on the processing

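No paired analysis was possible because levels of 1 group are described and no result comes from a test. The number of models present ran from 11199 to 13524 under minima of 2 and 0.5 RPKM, was 12650 with no filter on reads, and ran from 12558 to 12608 with 1 library left out. Transcription factors present ran from 64 to 89 and receptors from 101 to 141 under the same minima, and from 76 to 78 and from 123 to 128 with 1 library left out. All of these lie within 1.5 times the reported counts. As a share of estimated counts in place of RPKM, the 10 most abundant models held 14.1% and collagen models 13.5%. With 1 library left out the shares of the RPKM sum ran from 19.9% to 20.5% and from 18.5% to 19.3%. With 1 library left out 0 of 208 named levels moved by over 1.5 times, and the largest move was 1.43 times, for TRPS1 without replicate 2. MEIS1, outside that rule, went from 10.3 to 4.32 RPKM without replicate 2. Scaling to an equal RPKM sum, as for TPM, multiplied each library by 1.504 to 1.534 by construction. Joining models of 1 protein name changed 8 of 31 members by over 1.5 times: CDKN1A (0.0921 to 153 RPKM), NGFR (1.59 to 17.8 RPKM), IGF1R (8.69 to 33.8 RPKM), LOXL3 (8.81 to 18.4 RPKM), KLF5 (15.1 to 7.46 RPKM), CCN4 (132 to 77.8 RPKM), COL1A2 (7108 to 4218 RPKM) and LOXL1 (60.9 to 36.3 RPKM). For COL1A2 and LOXL1 the model joined was far lower than the named one, at 6.11 and 0.542 RPKM, so the fall comes mainly from its length. Where a member is a length-weighted mean over several models, the highest model alone was over 1.5 times that mean for 7 of 13, COL1A1, PRRX1 and FOSL2 among them. The highest-model values, the joining beyond the named genes and the joined COL1A2 ratio were chosen after seeing the data. Of 266 members called low or at the floor, 6 have another present model of the same protein name, so absence from a named model is not absence of the transcript.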

Other observations

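Beyond the lists, the deposited annotation gives 619 models a DNA-binding transcription factor activity, of which 418 were present (67.5%, against 63.8% of all models). High among them were the corepressor DRAP1 (420, 354 and 394 RPKM), AEBP1, a regulator of connective tissue genes (379, 392 and 393 RPKM), and ID1, an inhibitor of basic helix-loop-helix factors and a target of BMP signalling (367, 214 and 330.3 RPKM). ID1 was lowest in replicate 2. Of 144 models with growth factor activity 75 were present (52.1%, against the same 63.8%). Of 677 models of the extracellular space 334 were present (49.3%, against the same 63.8%). All 677 together held 15.6 ± 0.286% of the RPKM sum. That share counts COL1A1 once for each of its pieces in the set, with means of 24500, 24432 and 13107 RPKM. Secreted proteins outside the lists included clusterin (CLU), an extracellular chaperone, at 1281 ± 60.8 RPKM and SERPINF1, an inhibitor of vessel growth, at 761 ± 62.1 RPKM. These were chosen after their values were seen.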
